A study of Mus musculus with 17 samples.

Results

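The genes described here are 42 genes of the enzymes that cut the extracellular matrix and of their inhibitors: 16 matrix metalloproteinases (MMPs), 12 ADAMTS proteinases, 9 ADAM proteinases, 4 tissue inhibitors of metalloproteinases (TIMPs) and Reck. They were chosen by family name with earlier results of these data known, 22 further family genes being left outside, and were matched by gene symbol. All 42 were found among the 35896 gene identifiers of the series. RNA sequencing gave their levels in 17 cultures of wild-type C57BL/6J mouse pancreatic stellate cells, the pancreatic cells from which fibroblasts of a tumour can arise. Cells of the lines PSC4 (passages 23 to 25) and PSC5 (passages 27 and 28) were grown in Matrigel, a basement membrane gel, and kept for 4 days in one of 4 media. Control medium had 5 libraries (3 of PSC4, 2 of PSC5), and 20 ng/mL TGF-beta, medium conditioned by pancreatic tumour organoids (CM), and CM with 300 nM neratinib, an inhibitor of ERBB receptor kinases, had 4 libraries each, 2 of either line. The series calls the control cells quiescent and the TGF-beta cells myofibroblastic, and each line stands for 1 cell population, so the p-values below measure only the spread between these cultures. The labels also give every conditioned medium library a code, T6 (replicate number 2) or T8 (replicate number 1), without saying what the codes stand for.

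MMPs are zinc proteinases that are made as inactive precursors and switched on outside the cell or at its surface. Collagenases cut fibrillar collagen, stromelysins cut many matrix proteins and activate other MMPs, gelatinases cut denatured collagen and basement membrane collagen, and the membrane types work at the cell surface. ADAMTS proteinases are secreted and cut proteoglycans or process procollagen, whereas ADAMs are membrane proteins, several of which release growth factors and receptors from the surface. TIMPs block these enzymes, Timp3 with the widest range over ADAMs and ADAMTS, and Reck is a membrane-anchored inhibitor. Stellate cells and fibroblasts are a main source of these genes in a fibrotic pancreas.

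Library totals lay between 22168953 and 29421447 counts, and 3 counts in 1 library corresponded to 0.102 to 0.135 CPM (the usual unit of counts scaled to the library total, here corrected by TMM factors). On a principal component analysis of all genes, the 3 PSC4 libraries numbered 1, which come from all media but TGF-beta, lay at 1.8 to 37 on the third component, close to the PSC5 libraries (-3.6 to 36.2) and apart from the other PSC4 libraries (-56.8 to -19.7), so counts below are also given without them. On the second component, CM with neratinib PSC4 replicate 1 lay at -84.1, apart from the other libraries of its group (-46.9 to -17.2). Markers of stellate cells and fibroblasts were high in every library, with sums over 10 genes of 4075 to 20440 CPM, although Des and Lum were low. Epithelial markers, summed over 15 genes without Sox9, were at 145 to 325 CPM in the T6 libraries and at 9.88 to 52.9 CPM in the T8 libraries, against 16.1 to 23.7 CPM in control and 14.95 to 20.8 CPM with TGF-beta. Of the macrophage, neutrophil and endothelial lists, Adgre1, C1qa, Ngp and Cldn5 had no count in any library. The neutrophil and endothelial sums reached at most 5.36 and 32.0 CPM, and the macrophage sum of 6.93 to 68.3 CPM was mostly Cd14.

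Of the 42 genes, 5 lie in 1 stretch of chromosome 9, in the order Mmp13, Mmp12, Mmp3, Mmp10 and Mmp8, with 46377 to 76323 bases between neighbours. Mmp13, Mmp10, Mmp3 and Mmp12 had the 4 largest rises with CM among the members. Upstream sequences of the stretch are shown because 3 of its genes share 2 short motifs, with Mmp12 and the untested Mmp8 beside them. The 120 bases before the RefSeq start on GRCm38.p6, plus strand, are at chr9:7272394-7272513 for Mmp13, chr9:7344277-7344396 and chr9:7347254-7347373 for a first and a second start of Mmp12, chr9:7445702-7445821 for Mmp3, chr9:7502222-7502341 for Mmp10 and chr9:7558309-7558428 for Mmp8. Capitals mark matches to the AP-1 motif TGANTCA and to the TATA motif TATAAA.
Mmp13: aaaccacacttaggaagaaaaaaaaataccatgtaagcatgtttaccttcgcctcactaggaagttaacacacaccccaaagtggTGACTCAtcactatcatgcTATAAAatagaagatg
Mmp12, first start: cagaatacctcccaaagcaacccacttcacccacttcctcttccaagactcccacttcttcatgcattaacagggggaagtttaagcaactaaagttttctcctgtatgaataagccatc
Mmp12, second start: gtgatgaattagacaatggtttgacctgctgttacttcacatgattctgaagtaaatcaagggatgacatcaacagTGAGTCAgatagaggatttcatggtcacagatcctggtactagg
Mmp3: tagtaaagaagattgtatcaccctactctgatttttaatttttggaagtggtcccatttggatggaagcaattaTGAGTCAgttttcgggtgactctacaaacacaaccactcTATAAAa
Mmp10: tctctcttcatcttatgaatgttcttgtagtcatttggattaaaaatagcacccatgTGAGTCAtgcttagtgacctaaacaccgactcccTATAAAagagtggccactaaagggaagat
Mmp8: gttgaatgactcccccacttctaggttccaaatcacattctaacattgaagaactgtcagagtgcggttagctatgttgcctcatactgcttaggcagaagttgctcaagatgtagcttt
Mmp13, Mmp3 and Mmp10 each hold 1 AP-1 match, whose first base lies 35, 46 and 63 bases before the start, followed by a TATA match, and Mmp8 holds neither in these 120 bases. The first start of Mmp12 holds neither, and its second start holds an AP-1 match and no TATA match. RefSeq promoters were at hand for 27 of the 42 genes (31 windows of 250 bases upstream). On both strands, AP-1 was found in 5 of the 31 windows and in 6.75% of all 32851 mouse windows, and TATA in 4 of 31 and in 12.4% of all. Beside those shown, AP-1 was found at 1 of the starts of Adam19, and the other TATA match was in Adamts1. The ETS motif AGGAAG was in 12 of 31 windows and 29.5% of all, and the C/EBP motif TTGCNNAA in 6 of 31 and 9.56% of all. A match is a run of letters and was not tested as a site.

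A gene was tested if it passed edgeR's filter on low counts, which left 13923 genes and 39 of the 42 members. Mmp8, Mmp24 and Timp4 did not pass, and were at most at 0.442, 0.321 and 0.141 CPM in any library. Called means an adjusted p under 0.05 over all genes tested, in the main fit unless another is named. The main fit is the edgeR fit of all 17 libraries with group and cell line. With TGF-beta, 8 members were called higher and 15 lower than in control, where 19.7% of all genes were higher and 20.5% lower. With CM, 8 members were higher and 7 lower, against 7.05% and 7.14% of all genes. CM with neratinib had 9 members higher and 13 lower than control, against 22.2% and 20.9% of all genes. Neratinib within CM gave 3 higher and 4 lower, against 10.8% and 9.63%, and CM against TGF-beta gave 16 higher and 9 lower, against 17.8% and 17.5%. In the main fit at least 1 comparison called 32 of the members, and 7 tested members (Mmp9, Mmp15, Adam8, Adam15, Adamts2, Adamts4 and Adamts14) were called in none. Other fits called some of the 7, as given below. In the same order of comparisons, the libraries of the 2 groups did not overlap for 20, 19, 19, 8 and 24 of the 39 tested members. Over all genes tested, this was so for 32.7%, 19.8%, 29.4%, 18.7% and 31.5%. The first 3 comparisons share the control libraries, and the 3 that include the CM group share its libraries.

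The members' median size of change on the log2 scale was 0.73 with TGF-beta, 0.63 with CM and 0.63 with CM and neratinib against control, beside 0.27, 0.17 and 0.29 over all genes. Within CM, neratinib gave 0.40 beside 0.21, and CM against TGF-beta gave 0.64 beside 0.25. Their median signed changes were -0.35, -0.19, -0.17, -0.12 and 0.11 in the same order, so rises and falls stood side by side. Without the 3 libraries labelled PSC4 replicate 1, the calls were 28, 18, 24, 5 and 26, in place of 23, 15, 22, 7 and 25. Over all genes the calls moved in the same directions except that CM with neratinib had fewer, with 6945, 2543, 5658, 1989 and 5844 of 14049 in place of 5598, 1976, 5998, 2850 and 4916 of 13923. With upper-quartile factors the share of higher genes among all called ones moved from 49.7% to 37.5% for CM against control and from 51.4% to 41.1% for CM with neratinib. Among the members that scaling gave 7 higher and 7 lower with CM, and 8 higher and 15 lower with CM and neratinib.

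**Figure D1:**
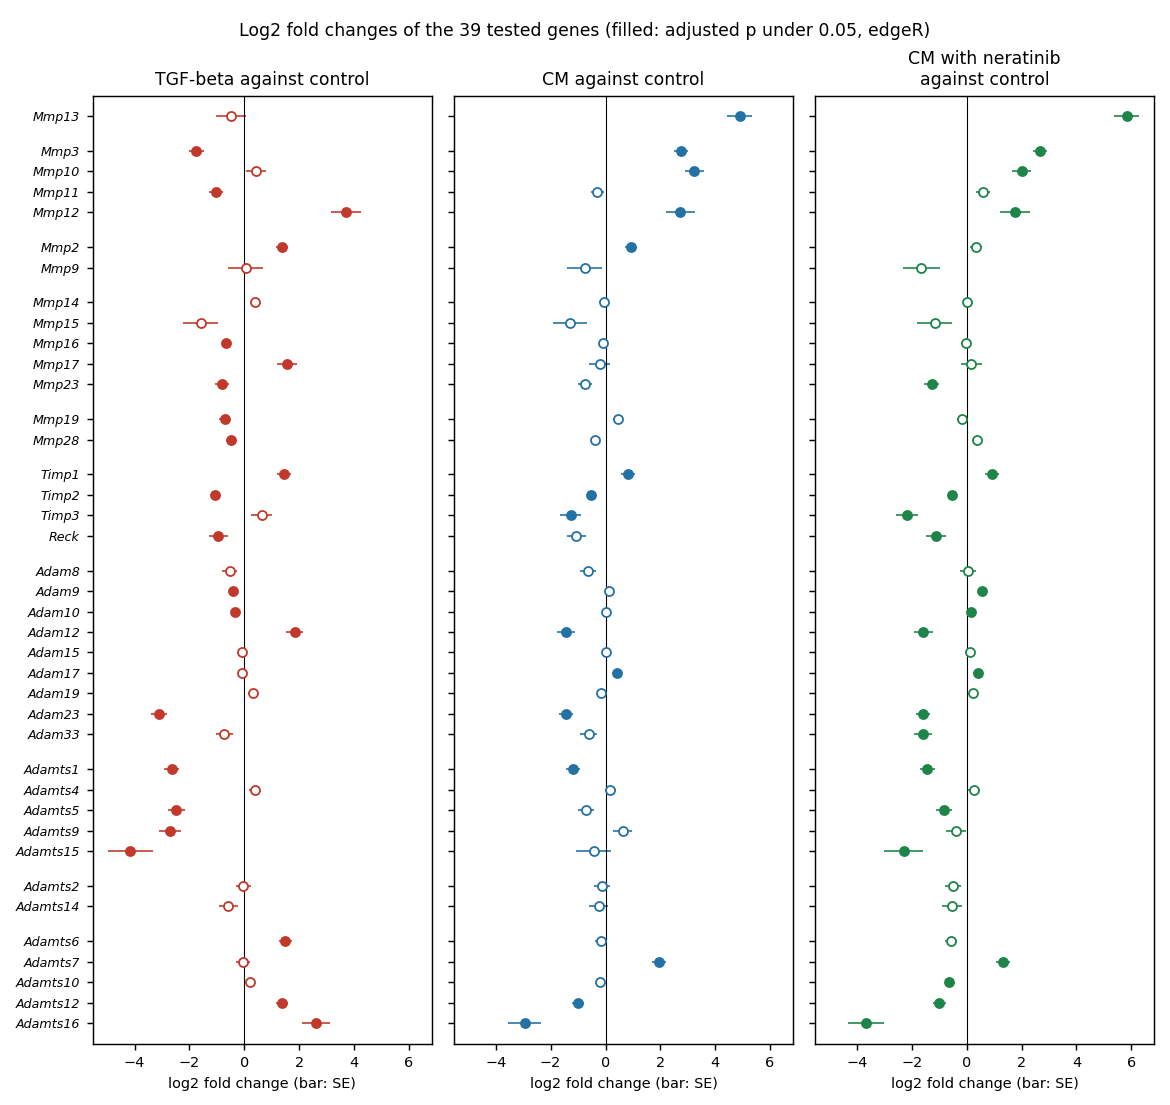
Log2 fold change against control (horizontal axis, bars are SE) of the 39 tested genes, grouped from top to bottom as collagenase, stromelysins and metalloelastase, gelatinases, membrane types, other MMPs, inhibitors, ADAMs and 3 groups of ADAMTS. Filled points have an edgeR adjusted p under 0.05. Mmp13 lies at 4.89 with CM and at 5.82 with CM and neratinib, while Adamts1, Adamts5, Adamts9 and Adamts15 lie below -2 with TGF-beta.

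Mmp13, the main interstitial collagenase of rodents, was low in control and with TGF-beta and far higher after CM (ENSMUSG00000050578, chromosome 9, 7272514 to 7283331 on GRCm38). Control libraries had 0.437, 3.11, 2.33, 0.575 and 0.532 CPM, listed here and below as PSC4 and then PSC5 by replicate number. TGF-beta libraries had 1.99, 1.34, 0.344 and 0.122 CPM. With CM the values were 21.9, 75.2, 23.5 and 19.6 CPM, and with CM and neratinib 88.5, 123, 35.9 and 36.9 CPM. Every CM library lay above every control and TGF-beta library, and in control the libraries of PSC4 replicates 2 and 3 lay above the other 3. Mmp13 rose with CM (log2 fold change 4.89, SE 0.45, edgeR adjusted p 1.65e-05) and with CM and neratinib (log2 fold change 5.82, SE 0.45, edgeR adjusted p 9.60e-07), and was higher with CM than with TGF-beta (log2 fold change 5.37, SE 0.51, edgeR adjusted p 2.13e-06). In bulk RNA, a change in the number of cells that express a gene and a change in RNA per cell cannot be told apart. Without the T6 libraries Mmp13 rose with CM by 4.54 (adjusted p 0.00138). The epithelial sums without Sox9 were at 9.88 to 52.9 CPM in the T8 libraries left in, against 16.1 to 23.7 CPM in control. Their part in the rise was not tested. Without the libraries labelled PSC4 replicate 1 it was lower with TGF-beta (-0.79, SE 0.24, edgeR adjusted p 0.0173).

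Mmp3, a stromelysin that also activates procollagenases, moved in opposite directions in the 2 treatments (ENSMUSG00000043613, chromosome 9, 7445822 to 7455975 on GRCm38). It was at 26.7, 39.5, 38.9, 28.9 and 26.4 CPM in control and at 10.5, 7.48, 12.0 and 7.53 CPM with TGF-beta. CM libraries had 176, 271, 170.1 and 238 CPM, and libraries with CM and neratinib 121, 330.1, 184 and 168 CPM. None of these ranges overlapped except those of the 2 conditioned medium groups. Mmp3 fell with TGF-beta (log2 fold change -1.74, SE 0.27, edgeR adjusted p 0.000146), rose with CM (log2 fold change 2.76, SE 0.26, edgeR adjusted p 1.80e-05) and rose with CM and neratinib (log2 fold change 2.66, SE 0.26, edgeR adjusted p 5.16e-06). Between CM and TGF-beta it differed by 4.50 (SE 0.30, edgeR adjusted p 8.14e-08), the second largest rise among the members after Mmp13. On the scale per kilobase of exon, which allows levels of different genes to be compared, Mmp3 was the 12th of the 42 genes in control (17.8 ± 3.66 CPM per kb, SD, n = 5), the 22nd with TGF-beta (5.21 ± 1.26, SD, n = 4) and the third with CM (119 ± 27.1, SD, n = 4).

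**Figure D2:**
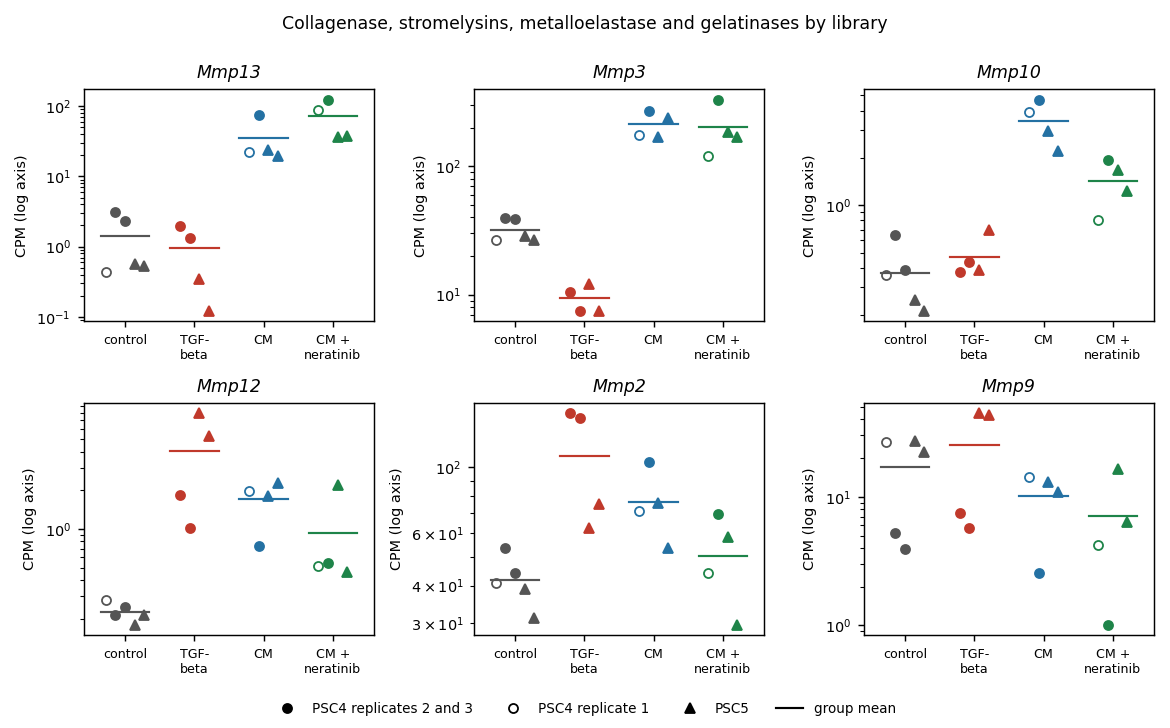
CPM on a log axis of Mmp13, Mmp3, Mmp10, Mmp12, Mmp2 and Mmp9 in each of the 17 libraries by medium. Circles are PSC4 (open for replicate 1), triangles are PSC5 and lines are group means. The CM libraries of Mmp13, Mmp3 and Mmp10 all lie above the control libraries, and Mmp9 is lowest in PSC4 replicates 2 and 3 within each medium.

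Mmp10, a second stromelysin, and Mmp12, the metalloelastase known from macrophages, moved at low levels. Mmp10 was at 0.213 to 0.644 CPM in control, 0.376 to 0.692 CPM with TGF-beta, 2.21 to 4.69 CPM with CM and 0.809 to 1.95 CPM with CM and neratinib. It was higher with CM than with TGF-beta (log2 fold change 2.81). It rose by 3.23 with CM and by 2.00 with CM and neratinib on the log2 scale, and was lower with neratinib within CM (log2 fold change -1.23), the 1 member called there with a change of at least 1. That last call was lost without the libraries labelled PSC4 replicate 1 (log2 fold change -0.98, adjusted p 0.0745), and without any of 3 single libraries (adjusted p 0.0537 to 0.0596). Mmp12 was at 0.180 to 0.278 CPM in control and at 1.01 to 7.91 CPM with TGF-beta. It was the member with the largest rise with TGF-beta (log2 fold change 3.72), and also rose with CM (2.73) and with CM and neratinib (1.75). The last call was lost without the PSC5 replicate 1 library of that group (1.21, adjusted p 0.0879) or without either PSC5 control library. With the replicate block Mmp12 was lower with CM than with TGF-beta (-1.25, SE 0.47, edgeR adjusted p 0.0497). The macrophage sum was at 27.2 to 53.4 CPM with CM and at 6.93 to 8.04 CPM with TGF-beta, mostly Cd14, and Adgre1 and C1qa were at 0 in all libraries.

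Mmp11, a stromelysin of tumour stroma that furin switches on inside the cell, followed another pattern (ENSMUSG00000000901, chromosome 10, 75923222 to 75936496 on GRCm38). Control libraries had 62.8, 128, 151, 69.9 and 57.4 CPM and TGF-beta libraries 42.9, 42.8, 49.3 and 37.1 CPM. The CM libraries had 59.5, 106, 64.0 and 63.1 CPM and those with neratinib 116, 174, 104 and 142 CPM. PSC4 replicates 2 and 3 were the highest in control, and every TGF-beta library lay below every control library. Mmp11 was higher with CM than with TGF-beta (log2 fold change 0.74), a call lost when any of 6 single libraries was left out. Mmp11 fell with TGF-beta (log2 fold change -1.04, SE 0.26, edgeR adjusted p 0.00492) and was higher with neratinib than without it in CM (log2 fold change 0.88, SE 0.26, edgeR adjusted p 0.0283). Under the replicate block it was also higher with CM and neratinib than in control (log2 fold change 0.71, SE 0.19, edgeR adjusted p 0.00894). Summed per kilobase over Mmp8, Mmp13, Mmp3, Mmp10, Mmp11 and Mmp12, the collagenases, stromelysins and metalloelastase were at 35.7 to 77.0 CPM per kb in control, 18.7 to 25.9 with TGF-beta, 128 to 220 with CM and 143 to 293 with CM and neratinib.

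The gelatinases differed from each other. Mmp2, the constitutive gelatinase of fibroblasts (ENSMUSG00000031740, chromosome 8, 92827291 to 92853420 on GRCm38), was at 40.9, 53.4, 44.0, 39.1 and 31.2 CPM in control and at 151, 146, 62.6 and 75.3 CPM with TGF-beta. With CM it was at 71.4, 104, 75.9 and 53.5 CPM and with CM and neratinib at 44.0, 69.3, 58.4 and 29.6 CPM. Every TGF-beta library lay above every control library, and with TGF-beta the PSC4 libraries lay above the PSC5 ones. Mmp2 rose with TGF-beta (log2 fold change 1.37, SE 0.22, edgeR adjusted p 0.000161) and with CM (log2 fold change 0.92, SE 0.22, edgeR adjusted p 0.0129). The CM call was lost without CM PSC5 replicate 1 (0.80, adjusted p 0.0573) and without the T6 libraries (0.90, adjusted p 0.0647). Blocked by replicate, Mmp2 was lower with neratinib within CM (log2 fold change -0.61, SE 0.17, edgeR adjusted p 0.0149).

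Mmp9, the inducible gelatinase, differed between libraries of 1 medium and was called in no comparison of the main fit. Control libraries had 26.8, 5.18, 3.91, 27.2 and 22.2 CPM and TGF-beta libraries 7.51, 5.67, 44.5 and 43.1 CPM. CM libraries had 14.3, 2.54, 13.0 and 10.9 CPM and those with neratinib 4.26, 1.01, 16.4 and 6.42 CPM. In control and CM the library labelled PSC4 replicate 1 was at the level of the PSC5 libraries, several fold above the other PSC4 libraries. When the libraries labelled PSC4 replicate 1 were removed, Mmp9 was called higher with TGF-beta (log2 fold change 0.69, SE 0.25, edgeR adjusted p 0.0376) and lower with CM (-1.03, SE 0.29, adjusted p 0.029) and with CM and neratinib (-1.35, SE 0.30, adjusted p 0.00368). In the fit with the replicate block, the last 2 were also called (-1.01, adjusted p 0.0174, and -1.72, adjusted p 0.000373), as was CM against TGF-beta (-1.66, SE 0.29, edgeR adjusted p 0.000587).

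Among the membrane types, Mmp14, the surface collagenase that activates Mmp2, was high everywhere. It was at 358 to 617 CPM in control, 408 to 838 CPM with TGF-beta, 362 to 518 CPM with CM and 342 to 619 CPM with CM and neratinib. Per kilobase it was the highest MMP in control (79.8 ± 17.3 CPM per kb, SD, n = 5) and with TGF-beta (103 ± 34.4, SD, n = 4), whereas with CM Mmp3 stood above it. It was called only between CM and TGF-beta, where it was lower with CM (log2 fold change -0.44), and this call was lost when any of 6 single libraries was left out. With the replicate block it rose with TGF-beta (log2 fold change 0.29, SE 0.07, edgeR adjusted p 0.00521).

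Mmp23, a membrane-bound MMP of unusual domain structure (ENSMUSG00000029061, chromosome 4, 155650655 to 155653384 on GRCm38), was at 12.6, 16.7, 21.0, 14.3 and 10.7 CPM in control and at 11.0, 9.82, 8.86 and 4.15 CPM with TGF-beta. It was at 7.20, 11.6, 7.92 and 8.02 CPM with CM and at 3.79, 7.90, 6.44 and 5.77 CPM with CM and neratinib. All libraries with CM and neratinib lay below all control libraries (log2 fold change -1.28, SE 0.26, edgeR adjusted p 0.00153), and Mmp23 was also lower with TGF-beta (log2 fold change -0.82). Under the replicate block it was lower with CM too (-0.67, SE 0.16, edgeR adjusted p 0.0131). The glycolipid-anchored Mmp17 rose with TGF-beta (log2 fold change 1.56), from 1.21 to 3.28 CPM to 3.65 to 9.06 CPM, and was lower with CM than with TGF-beta (-1.78). Mmp16 fell with TGF-beta (-0.65), from 15.3 to 22.7 CPM to 10.2 to 15.9 CPM, and was higher with CM than with TGF-beta (0.56).

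Mmp15, a membrane type known from epithelia, followed the medium codes. Control libraries were at 2.18 to 4.85 CPM and TGF-beta libraries at 0.903 to 1.24 CPM. The T8 libraries had 0.951 and 0.230 CPM with CM and 0.341 and 0.476 CPM with CM and neratinib, and the T6 libraries had 1.73 and 2.45 CPM with CM and 1.44 and 3.85 CPM with CM and neratinib. Blocked by replicate, Mmp15 was lower than in control with TGF-beta (-1.62, SE 0.56, edgeR adjusted p 0.0281) and with CM and neratinib (-1.52, SE 0.55, edgeR adjusted p 0.0356). All 4 T6 libraries lay above all 4 T8 libraries, as the epithelial markers did, whose part in this was not tested. In a term for T6 against T8 beside the replicate numbers, Mmp15 was higher in T6 by 2.45 (SE 0.50) with an unadjusted p of 0.0004 and an edgeR adjusted p of 0.298. DESeq2 called it (log2 fold change 2.46, SE 0.54, adjusted p 0.0043), as 1 of 33 genes of all 13923, and edgeR called 0 members and 0% of all genes in either direction. The other members with an unadjusted p under 0.05 there were Reck, Adam19 and Mmp3, higher in T6, and Adamts7, lower.

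Mmp19, which cuts basement membrane proteins (ENSMUSG00000025355, chromosome 10, 128790910 to 128800824 on GRCm38), was at 123, 128, 137, 129.8 and 117 CPM in control and at 94.8, 85.5, 81.3 and 46.1 CPM with TGF-beta. It was at 172, 176, 191 and 158 CPM with CM and at 79.3, 131, 143 and 92.8 CPM with CM and neratinib. CM was the highest group without overlap and TGF-beta lay below control without overlap. Mmp19 fell with TGF-beta (log2 fold change -0.72), was higher with CM than with TGF-beta (log2 fold change 1.19, SE 0.20, edgeR adjusted p 0.000298) and was lower with neratinib within CM (-0.64). In the fit with the replicate block, it was also higher with CM than in control (0.50, SE 0.14, edgeR adjusted p 0.0229). Of its exon bases, 22.3% overlap Tmem198b on the opposite strand, and whether counting used strand is not given in the sources used here. Mmp28, also called epilysin, was at 8.94 to 11.1 CPM in control and fell with TGF-beta (log2 fold change -0.49). This fall was not called when any of 4 single libraries was left out. Within CM it was higher with neratinib (0.73), at 9.92 to 14.4 CPM against 7.24 to 8.09 CPM.

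The inhibitors did not move as a group. Timp1, a secreted inhibitor known to rise in fibrosis (ENSMUSG00000001131, chromosome X, 20870166 to 20874735 on GRCm38), was at 164, 167, 178, 172 and 149 CPM in control and at 499, 587, 305 and 419 CPM with TGF-beta. With CM it was at 246, 294, 409 and 213 CPM and with CM and neratinib at 219.9, 311, 515 and 212 CPM. All treated libraries lay above all control libraries. Timp1 rose with TGF-beta (log2 fold change 1.45, SE 0.26, edgeR adjusted p 0.000435), with CM (log2 fold change 0.81, SE 0.26, edgeR adjusted p 0.049) and with CM and neratinib (log2 fold change 0.92, SE 0.26, edgeR adjusted p 0.0105). The CM call was lost when any of 8 single libraries was left out, with adjusted p between 0.064 and 0.196 in those fits. Per kilobase Timp1 became the highest of the 42 genes in all 3 treatments (510 ± 135 CPM per kb with TGF-beta, SD, n = 4), where in control Timp2 was the highest (311 ± 24.9, SD, n = 5).

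Timp2, which inhibits MMPs and also takes part in the activation of Mmp2 (ENSMUSG00000017466, chromosome 11, 118301069 to 118355740 on GRCm38), was at 1294, 1091, 1165, 1327 and 1181 CPM in control. It was at 588, 637, 570.3 and 523 CPM with TGF-beta, 916, 760.5, 792 and 908 CPM with CM and 629.7, 930.4, 888 and 886 CPM with CM and neratinib. Control lay above the 3 treatments without overlap, and TGF-beta below CM without overlap. Timp2 fell with TGF-beta (log2 fold change -1.07, SE 0.11, edgeR adjusted p 4.97e-06), with CM (-0.52) and with CM and neratinib (-0.54), and was higher with CM than with TGF-beta (0.54). Without the T6 libraries the log2 fold change of Timp2 with CM was -0.50 and was not called (edgeR adjusted p 0.0591).

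Timp3, the matrix-bound inhibitor that also blocks ADAMs and ADAMTS (ENSMUSG00000020044, chromosome 10, 86300372 to 86349506 on GRCm38), went down in conditioned medium. Control libraries had 459, 687, 775, 369 and 325 CPM and TGF-beta libraries 1005, 1498, 396 and 394 CPM. CM libraries had 222, 278, 120.1 and 189 CPM and those with neratinib 32.6, 164, 96.6 and 107 CPM. With TGF-beta the PSC4 libraries lay above the PSC5 ones, and both conditioned medium groups lay below all control libraries. Timp3 fell with CM (log2 fold change -1.27, SE 0.39, edgeR adjusted p 0.0431) and with CM and neratinib (log2 fold change -2.18, SE 0.41, edgeR adjusted p 0.000787), and was lower with CM than with TGF-beta (log2 fold change -1.90, SE 0.41, edgeR adjusted p 0.00228). Leaving out any of 8 single libraries ended the CM call (adjusted p 0.0514 to 0.131), whereas removing all 3 libraries labelled PSC4 replicate 1 kept it (-1.23, adjusted p 0.00345). Without those 3 libraries Timp3 was also higher with TGF-beta (0.51, SE 0.19, edgeR adjusted p 0.0474). With the replicate block Timp3 was also lower with neratinib within CM (-1.06, SE 0.33, edgeR adjusted p 0.0262). Of its exon bases, 21.3% overlap Syn3 on the opposite strand, which had 180 counts in all 17 libraries against 192072 for Timp3.

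Reck (ENSMUSG00000028476, chromosome 4, 43875530 to 43944806 on GRCm38) was at 22.5, 43.0, 48.9, 23.7 and 20.5 CPM in control and at 22.9, 24.7, 11.1 and 7.20 CPM with TGF-beta. It was at 10.7, 24.3, 9.14 and 12.6 CPM with CM and at 6.68, 29.1, 8.78 and 10.8 CPM with CM and neratinib. PSC4 replicates 2 and 3 were the highest libraries in each medium that had them. Reck fell with TGF-beta (log2 fold change -0.94) and with CM and neratinib (log2 fold change -1.12, SE 0.36, edgeR adjusted p 0.0218). The first call was lost when any of 8 single libraries was left out and the second without CM with neratinib PSC4 replicate 1 (-0.81, adjusted p 0.0504). Without the libraries labelled PSC4 replicate 1 Reck was lower with CM as well (-0.95, SE 0.16, edgeR adjusted p 0.00288), as with the replicate block (-0.97, adjusted p 0.00295). Summed per kilobase, the 16 MMPs stood to the 4 TIMPs as 0.304 to 0.416 in control, 0.213 to 0.311 with TGF-beta, 0.423 to 0.709 with CM and 0.376 to 0.765 with CM and neratinib. These ratios of RNA say nothing on active enzyme.

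**Figure D3:**
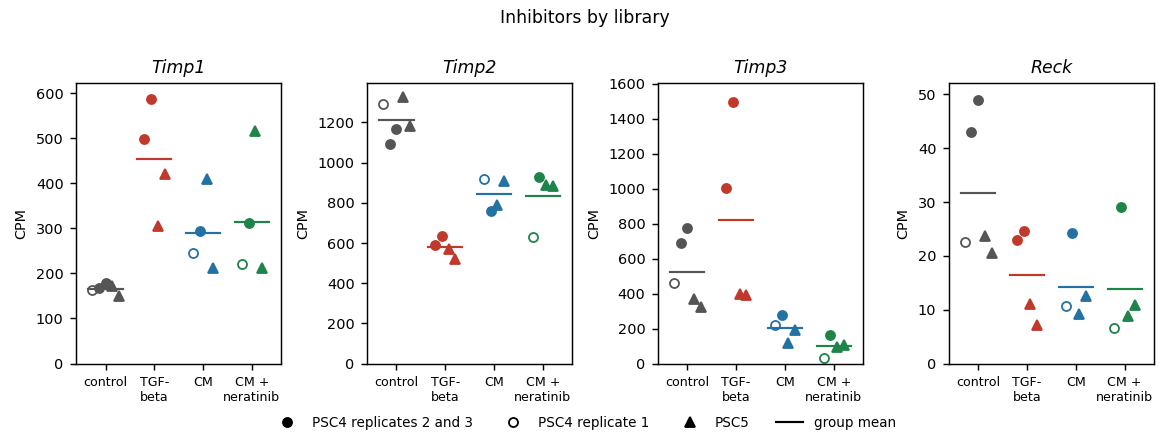
CPM of Timp1, Timp2, Timp3 and Reck in each of the 17 libraries by medium, on linear axes from 0. Circles are PSC4 (open for replicate 1), triangles are PSC5 and lines are group means. Timp1 lies above control in all treated libraries, Timp2 lies below control in all of them, and Timp3 is at 32.6 to 278 CPM in the 2 conditioned medium groups against 325 to 775 CPM in control.

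The proteoglycanases, ADAMTS enzymes that cut aggrecan and versican, fell with TGF-beta in 4 of 5 cases. Adamts1 (ENSMUSG00000022893, chromosome 16, 85793827 to 85803113 on GRCm38) was at 238, 273, 327, 228 and 217 CPM in control and at 44.9, 43.3, 55.2 and 16.9 CPM with TGF-beta. CM libraries had 139, 105, 78.8 and 120.3 CPM and those with neratinib 69.4, 136, 85.6 and 79.3 CPM. The 3 treatments lay below control without overlap, TGF-beta the lowest. Adamts1 fell with TGF-beta (log2 fold change -2.65, SE 0.28, edgeR adjusted p 5.43e-06), with CM (log2 fold change -1.18, SE 0.26, edgeR adjusted p 0.0101) and with CM and neratinib (log2 fold change -1.44, SE 0.27, edgeR adjusted p 0.000749), and was higher with CM than with TGF-beta (log2 fold change 1.47, SE 0.28, edgeR adjusted p 0.000843). Without the T6 libraries the log2 fold change of Adamts1 with CM was -1.23 and was not called (edgeR adjusted p 0.0646).

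Adamts5, the main aggrecanase of mouse cartilage, is the neighbour of Adamts1 on chromosome 16, 53060 bases away (ENSMUSG00000022894, chromosome 16, 85856173 to 85901828 on GRCm38). It was at 244, 227, 255, 210.2 and 219.5 CPM in control, 45.5, 48.2, 55.8 and 15.9 CPM with TGF-beta, 193, 109.7, 100.1 and 158 CPM with CM and 85.8, 158, 132 and 138 CPM with CM and neratinib. Both neighbours were thus lowest with TGF-beta, and for both the lowest of all 17 libraries was TGF-beta PSC5 replicate 2. Adamts5 fell with TGF-beta (log2 fold change -2.47, SE 0.31, edgeR adjusted p 1.95e-05) and was higher with CM than with TGF-beta (log2 fold change 1.77, SE 0.31, edgeR adjusted p 0.000412). Against control it was lower with CM and neratinib (-0.82), a call lost without CM with neratinib PSC4 replicate 1 (-0.63, adjusted p 0.106) and without any of 3 control libraries.

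Adamts9 and Adamts15 were also lowest with TGF-beta in their group means. Adamts9 (ENSMUSG00000030022, chromosome 6, 92772699 to 92943492 on GRCm38) was at 27.7, 30.0, 29.1, 26.9 and 27.1 CPM in control and at 4.13, 4.26, 7.65 and 1.505 CPM with TGF-beta. With CM it was at 42.1, 47.1, 54.6 and 31.8 CPM and with CM and neratinib at 9.49, 25.1, 37.0 and 14.9 CPM. All CM libraries lay above all control libraries and all TGF-beta libraries below them, but the rise with CM was not called. Adamts9 fell with TGF-beta (log2 fold change -2.70, SE 0.41, edgeR adjusted p 0.000111) and was higher with CM than with TGF-beta (log2 fold change 3.33, SE 0.42, edgeR adjusted p 2.93e-05). Under the replicate block it was lower with neratinib within CM (-1.12, SE 0.28, edgeR adjusted p 0.011). Adamts15 was at 3.12 to 8.71 CPM in control, 0.0407 to 0.559 CPM with TGF-beta and 2.82 to 5.36 CPM with CM. It had the largest fall with TGF-beta among the members (log2 fold change -4.15) and was higher with CM than with TGF-beta (3.72). Against control it was also lower with CM and neratinib (-2.30). Adamts4, the fifth of these enzymes, was at 41.4 to 50.2 CPM in control, 48.1 to 81.4 CPM with TGF-beta and 44.2 to 61.0 CPM with CM, and was not called in the main fit. Summed per kilobase the 5 genes were at 73.3 to 97.2 CPM per kb in control, 16.7 to 33.1 with TGF-beta, 40.2 to 56.7 with CM and 29.03 to 55.4 with CM and neratinib.

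**Figure D4:**
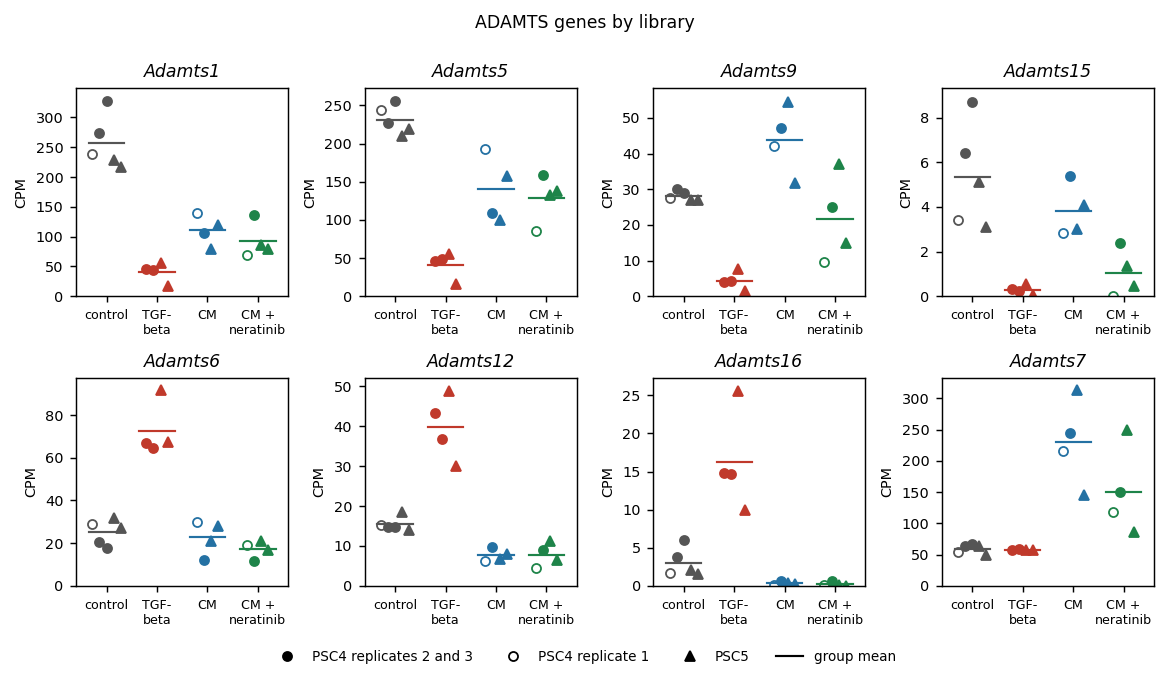
CPM of 8 ADAMTS genes in each of the 17 libraries by medium, on linear axes from 0. Circles are PSC4 (open for replicate 1), triangles are PSC5 and lines are group means. The upper row (Adamts1, Adamts5, Adamts9, Adamts15) has its lowest group means with TGF-beta, Adamts6, Adamts12 and Adamts16 are highest with TGF-beta, and Adamts7 is highest with CM at 146 to 314 CPM.

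The other ADAMTS genes that rose with TGF-beta were Adamts6, Adamts12 and Adamts16. Adamts6, known for its part in fibrillin assembly (ENSMUSG00000046169, chromosome 13, 104287835 to 104496695 on GRCm38), was at 29.1, 20.5, 17.5, 31.8 and 27.3 CPM in control and at 67.1, 64.7, 91.6 and 67.2 CPM with TGF-beta. It was at 29.8, 12.1, 21.1 and 27.8 CPM with CM and at 19.3, 11.5, 21.2 and 16.9 CPM with CM and neratinib. Every TGF-beta library lay above every other library. Adamts6 rose with TGF-beta (log2 fold change 1.5008, SE 0.22, edgeR adjusted p 0.000101) and was lower with CM than with TGF-beta (log2 fold change -1.67, SE 0.24, edgeR adjusted p 8.87e-05). Blocked by replicate, it was lower with CM and neratinib than in control (-0.64, SE 0.15, edgeR adjusted p 0.00436).

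Adamts12 and Adamts16 rose with TGF-beta and fell with CM. Adamts12, which cuts cartilage oligomeric matrix protein (ENSMUSG00000047497, chromosome 15, 11064790 to 11349231 on GRCm38), was at 15.1, 14.7, 14.7, 18.5 and 14.0 CPM in control and at 43.2, 36.8, 48.9 and 29.9 CPM with TGF-beta. It was at 6.32, 9.81, 6.81 and 8.02 CPM with CM and at 4.38, 8.95, 11.3 and 6.42 CPM with CM and neratinib. The TGF-beta libraries lay above control and the conditioned medium libraries below it, without overlap. Adamts12 rose with TGF-beta (log2 fold change 1.36, SE 0.22, edgeR adjusted p 0.000176), fell with CM (log2 fold change -0.9982, SE 0.23, edgeR adjusted p 0.0106) and with CM and neratinib (log2 fold change -1.0011, SE 0.23, edgeR adjusted p 0.00297), and was lower with CM than with TGF-beta (log2 fold change -2.36, SE 0.24, edgeR adjusted p 3.96e-06).

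Adamts16 (ENSMUSG00000049538, chromosome 13, 70727802 to 70841811 on GRCm38) was at 1.71, 3.83, 5.99, 2.08 and 1.56 CPM in control and at 14.8, 14.7, 25.5 and 9.97 CPM with TGF-beta. It was at 0.170, 0.670, 0.383 and 0.235 CPM with CM and at 0.128, 0.623, 0.130 and 0 CPM with CM and neratinib, where 1 library had no count. No CM or neratinib library reached the lowest control library. Adamts16 rose with TGF-beta (log2 fold change 2.60, SE 0.50, edgeR adjusted p 0.000847), fell with CM (log2 fold change -2.95) and with CM and neratinib (-3.67), and had the largest difference of all members between CM and TGF-beta (log2 fold change -5.55, SE 0.64, edgeR adjusted p 1.22e-05).

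Adamts7, a relative of Adamts12 with the same substrate, rose with CM and was not called with TGF-beta (ENSMUSG00000032363, chromosome 9, 90163069 to 90208071 on GRCm38). It was at 53.7, 63.6, 67.2, 64.3 and 49.5 CPM in control and at 58.0, 58.3, 57.6 and 56.8 CPM with TGF-beta. With CM it was at 216, 245, 314 and 146 CPM and with CM and neratinib at 118, 149.5, 249.7 and 85.8 CPM. Every conditioned medium library lay above every control library. Adamts7 rose with CM (log2 fold change 1.94, SE 0.26, edgeR adjusted p 0.000346) and with CM and neratinib (log2 fold change 1.33, SE 0.25, edgeR adjusted p 0.000914), was higher with CM than with TGF-beta (log2 fold change 2.00, SE 0.28, edgeR adjusted p 5.96e-05), and rose as much without the T6 libraries (2.11, adjusted p 0.000374). In the fit with the replicate block, it was lower with neratinib within CM (-0.65, SE 0.18, edgeR adjusted p 0.0175).

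Adamts10, another gene of fibrillin assembly, was at 61.8 to 73.5 CPM in control and lower with CM and neratinib (log2 fold change -0.63). It was lower with neratinib within CM (-0.44) and with CM against TGF-beta (-0.40), where the replicate block gave -0.32 and an edgeR adjusted p of 0.0595. Each of these 2 calls was lost when any of 7 single libraries was left out. The procollagen N-proteinases Adamts2 and Adamts14, which trim fibrillar procollagens, were not called in the main fit. Adamts2 was at 125 to 150.3 CPM in control, 55.1 to 175 CPM with TGF-beta, 98.8 to 149 CPM with CM and 64.1 to 149 CPM with CM and neratinib. For Adamts14 these ranges were 21.6 to 50.6, 12.6 to 55.2, 17.0 to 45.3 and 13.0 to 43.2 CPM. With the replicate block Adamts14 was lower with CM and neratinib than in control (-0.69, SE 0.21, edgeR adjusted p 0.0158). Adamts2 was called in that comparison without CM with neratinib PSC5 replicate 1.

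Of the ADAMs, Adam12, a sheddase known from activated stroma, had the clearest contrast between the treatments (ENSMUSG00000054555, chromosome 7, 133883199 to 134232146 on GRCm38). It was at 17.7, 20.4, 25.4, 25.5 and 18.0 CPM in control and at 68.9, 69.9, 83.8 and 88.3 CPM with TGF-beta. CM libraries had 6.76, 8.86, 8.11 and 8.15 CPM and those with neratinib 1.83, 10.6, 11.2 and 5.45 CPM. The TGF-beta libraries lay above control and both conditioned medium groups below it, without overlap. Adam12 rose with TGF-beta (log2 fold change 1.83, SE 0.31, edgeR adjusted p 0.000308) and fell with CM (log2 fold change -1.45, SE 0.33, edgeR adjusted p 0.0112) and with CM and neratinib (log2 fold change -1.58, SE 0.34, edgeR adjusted p 0.00184). Between CM and TGF-beta the difference was -3.28 (SE 0.36, edgeR adjusted p 7.25e-06).

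Adam23, an adhesion protein without proteinase activity (ENSMUSG00000025964, chromosome 1, 63445891 to 63596276 on GRCm38), was at 61.5, 39.6, 34.0, 71.4 and 66.9 CPM in control and at 3.34, 6.14, 10.7 and 7.08 CPM with TGF-beta. It was at 25.6, 12.1, 17.7 and 27.2 CPM with CM and at 10.9, 15.4, 26.98 and 24.5 CPM with CM and neratinib. All 3 treatments lay below control without overlap. Adam23 fell with TGF-beta (log2 fold change -3.10, SE 0.29, edgeR adjusted p 1.44e-06), with CM (log2 fold change -1.43, SE 0.26, edgeR adjusted p 0.00317) and with CM and neratinib (log2 fold change -1.60, SE 0.27, edgeR adjusted p 0.000343), and was higher with CM than with TGF-beta (log2 fold change 1.67, SE 0.28, edgeR adjusted p 0.000354). Without the T6 libraries the log2 fold change of Adam23 with CM was -1.28 and was not called (edgeR adjusted p 0.0627). Adam33, at 4.97 to 16.0 CPM in control with the 2 highest values in PSC4 replicates 2 and 3, was lower with CM and neratinib (log2 fold change -1.60) and with neratinib within CM (-0.98). Under the replicate block it was lower with TGF-beta too (-0.79, SE 0.25, edgeR adjusted p 0.0197).

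Adam17, Adam10 and Adam9 had smaller changes than Adam12. Adam17, which releases TNF and several ERBB ligands, was at 109.7 to 129 CPM in control and rose with CM (log2 fold change 0.42) and with CM and neratinib (0.39). Adam10 was at 268 to 316 CPM, fell with TGF-beta (-0.35) and was higher with CM and neratinib (0.17). That last call was lost under 11 of 19 alternatives other than the fold minimum, which it also misses. Adam9 was at 338 to 408 CPM in control, 202 to 299.8 CPM with TGF-beta, 377 to 418 CPM with CM and 476 to 603 CPM with CM and neratinib. It fell with TGF-beta (-0.42) and rose with CM and neratinib (0.54), and within CM it was higher with neratinib (0.41). Between CM and TGF-beta, Adam9 (0.55), Adam17 (0.51) and Adam10 (0.36) were higher with CM. Per kilobase Adam9 was the highest ADAM in control (88.8 ± 6.42 CPM per kb, SD, n = 5). Adam19, at 70.2 to 130.4 CPM in control, was lower with CM than with TGF-beta (-0.48), a call lost when any of 6 single libraries was left out. Adam19 was higher with TGF-beta than in control with the replicate block (0.41, SE 0.11, edgeR adjusted p 0.00839). Adam15 (113 to 140.2 CPM in control) and Adam8 (3.03 to 6.12 CPM) were not called in the main fit, and leaving out CM with neratinib PSC4 replicate 2 called Adam8 for neratinib within CM.

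Neratinib was compared within CM, and no library had neratinib without CM. Inhibition of ERBB signals from the CM thus cannot be told apart from other effects of the drug on the cells. The comparison called 7 members, Mmp11, Mmp28 and Adam9 higher and Mmp10, Mmp19, Adam33 and Adamts10 lower (backgrounds of 10.8% and 9.63% as above). None of the 7 calls was kept under every alternative. The count ran from 3 to 10 when single libraries were left out, where 1748 to 3685 of all genes were called. Without the T6 libraries it was 0, where the calls over all genes fell from 2850 to 187. Blocked by replicate, which pairs libraries by line and number, all 7 calls were kept and 16 members were called, 6 higher and 10 lower. The calls over all genes went from 2850 to 4563 of 13923. Among the members called with the block were Mmp13 (log2 fold change 1.08, SE 0.24, edgeR adjusted p 0.00565), Adam19 (0.40) and Adam10 (0.16), all higher. Adamts15 (-2.20, SE 0.58, edgeR adjusted p 0.0134) and Mmp23 (-0.56) were lower. The rise of Mmp3 with CM was not reversed with neratinib, at 201 ± 90.3 CPM (SD, n = 4) against 214 ± 48.8 CPM (SD, n = 4). The log2 difference was -0.10 (SE 0.26, edgeR adjusted p 0.828).

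**Figure D5:**
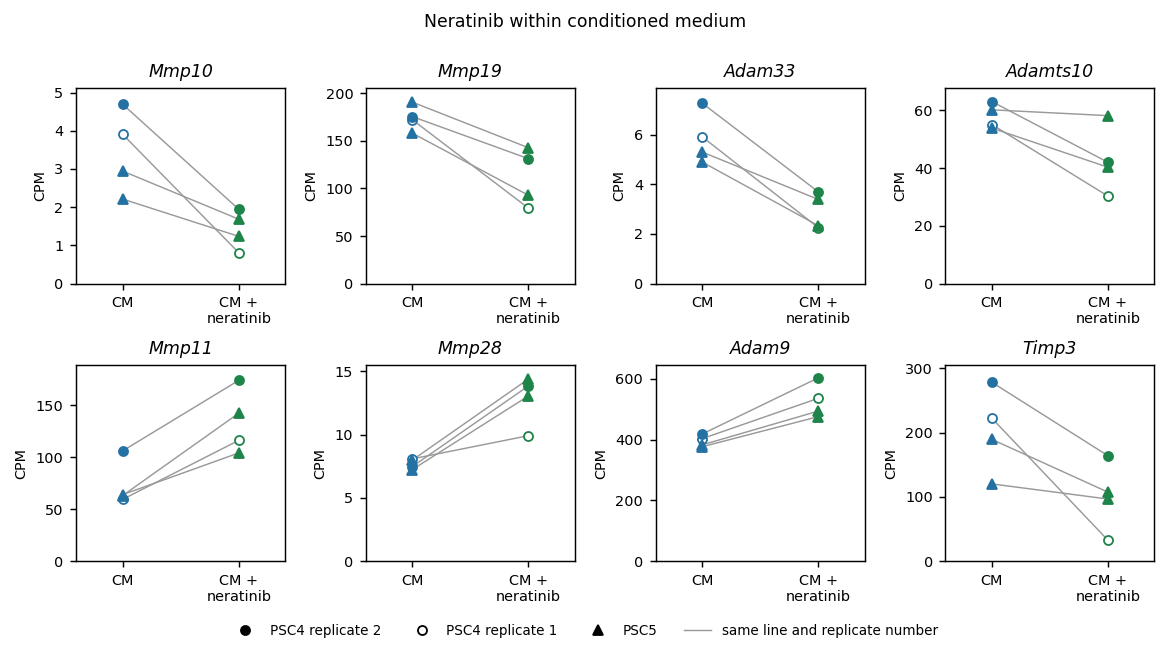
CPM of the 7 members called for neratinib within CM, and of Timp3, in the 4 CM libraries and the 4 libraries with CM and neratinib, on linear axes from 0. Grey lines join libraries of the same line and replicate number, circles are PSC4 (open for replicate 1) and triangles PSC5. Every line for Mmp10, Mmp19, Adam33, Adamts10 and Timp3 goes down, and every line for Mmp11, Mmp28 and Adam9 goes up.

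Whether a response differed between the lines was tested as an interaction. The interaction of line with TGF-beta, with CM and with neratinib within CM called 0 members with edgeR and 0 with DESeq2, and edgeR called 0% of all genes in each. At an unadjusted p under 0.05 there were 2 members for TGF-beta, namely Mmp12, with a larger rise in PSC5 (difference 2.53, SE 0.94), and Mmp28, with a larger fall in PSC5 (-0.82, SE 0.28), and 0 for the other 2 interactions. Over all genes, DESeq2 called 29 for TGF-beta by line, 0 for CM by line and 1 for neratinib by line. With edgeR, TGF-beta by line had 2 calls over all genes without the libraries labelled PSC4 replicate 1 and 3 with those counted as PSC5, and the other 2 interactions had 0 in both, with 0 members called in any of these.

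Of 37 other genes of pericellular proteolysis (plasminogen activation, convertases, receptors of proteinases, other proteases and inhibitors), 32 were tested. With TGF-beta 14 were higher and 5 lower (median log2 fold change 0.46, all genes -0.02), against 19.7% and 20.5% of all genes. Among genes with at least 10 CPM in the higher group, the largest rises were in Tfpi2, an inhibitor of plasmin (3.01), Tll1, a procollagen C-proteinase (2.82), Pcolce2, which enhances that cleavage (2.39), and Pappa, which cuts binding proteins of insulin-like growth factors (1.85). Lrp1, the receptor that takes up many proteinases, rose by 1.30. With CM 1 was higher and 4 lower (median -0.07, all genes 0), against 7.05% and 7.14% of all genes. Of the 4, the serine protease Prss23 fell most (-1.20). CM with neratinib had 6 higher and 10 lower (median -0.24), against 22.2% and 20.9% of all genes. There were falls in Prss23 (-2.06), Fap (-1.70) and Plat, the tissue plasminogen activator (-1.17), and a rise in the collagen-cutting cathepsin Ctsk (1.70).

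Within CM, neratinib had 3 of these genes higher and 4 lower (median -0.11), against 10.8% and 9.63% of all genes. Fap, the fibroblast activation protein, was among the lower ones (-1.43). Between CM and TGF-beta 4 were higher and 13 lower (median -0.31), against 17.8% and 17.5% of all genes. The largest differences at 10 CPM or more were in Tll1 (-3.50), Pcolce2 (-3.49), Tfpi2 (-2.63), Htra3 (-2.40), Pappa (-1.99) and Prss23 (-1.87). Below that level, Spock2 (2.56 with TGF-beta and -3.36 for CM against TGF-beta) and Serpinb2 (2.77 for CM against TGF-beta) were called too, and were picked out after their values were seen. Of 22 further family genes outside the 42, 11 were tested. They had 2 higher and 3 lower with TGF-beta, 1 and 2 with CM, 0 and 6 with CM and neratinib, 1 and 2 with neratinib within CM and 4 and 2 with CM against TGF-beta. In that order, 19.7% and 20.5%, 7.05% and 7.14%, 22.2% and 20.9%, 10.8% and 9.63%, and 17.8% and 17.5% of all genes were called higher and lower. The 11 genes had median log2 fold changes of -0.87, -0.69, -1.19, -0.66 and 0.25 in that order. The ADAMTS-like genes Adamtsl3 and Adamtsl4, which lack a proteinase domain, moved apart with TGF-beta, with log2 fold changes of 1.23 and -2.14. With CM and neratinib both were lower (-1.67 and -1.19), and between CM and TGF-beta they differed by -2.25 and 1.46.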

How the data were processed

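The authors deposited estimated counts per gene for each library, made with tools that the submitters' processing notes name without a role as Salmon 1.4.0 and DESeq 2 and with the build GRCm38 (mm10). Per the labels, RNA was taken with TRIzol and an RNeasy Plus Mini kit and made into Illumina mRNA libraries. The annotation release, filters and strand setting are not given in the sources used here. Counts were rounded to whole numbers (74.8% of values above 0 were not whole).

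All 17 libraries entered 1 edgeR 4.0.16 quasi-likelihood fit (R 4.3.3) with group and cell line, TMM factors and filterByExpr (minimum count 10, total 15), with Benjamini-Hochberg adjustment over 13923 genes. SE is the log2 fold change over the root of F. Levels per kilobase used GENCODE M21 merged exon lengths. Promoters came from RefSeq (GRCm38.p6). The procedure was tested on simulated data.

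Members and gene lists were chosen with earlier results of these data known. Full values are given for members called with a log2 change of at least 1 and whose higher group averaged 10 CPM or more; others are given by range, fold or level. One gene that this rule names is not reported here. The replicate block uses line and number: all 22 pairs of same-numbered libraries of a line deviated together (median r 0.299, lowest 0.12; other numbers -0.076). Without PSC4 replicate 1 the medians were 0.288 for the same number and 0.255 for others, with 14 of 18 of the latter over 0.1. The labels give same-numbered libraries of a line the same passage. No 2 libraries were identical (highest r 0.9939). Alternatives were other scalings, no filter, DESeq2 1.42.0, a fold minimum, leaving out libraries, and the block; removing the T6 libraries was chosen after seeing the data.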

Additional observations from a re-analysis of the deposited data

Results flagged for a closer look

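In 11 of 109 groups of members and media, 1 library stood apart from the others of its group by Dixon's criterion, where chance gives about 1 in 20. Each group holds libraries of both lines, which this chance rate leaves out of account. CM PSC4 replicate 2 did so for Mmp13 (75.15 CPM), Mmp11 (106.1 CPM) and Mmp16 (16.34 CPM) and for Mmp9 (2.54 CPM), and in the first 2 it was the highest library of the group and in the others the lowest. In control, PSC4 replicates 2 and 3 were likewise the highest for Mmp13 and Mmp11 and the lowest for Mmp16 and Mmp9. On the third component of all genes CM PSC4 replicate 2 lay at -40.9 and the other CM libraries at 9.7 to 23.8. TGF-beta PSC5 replicate 2 was the lowest for Adam9 (201.8 CPM), Adamts5 (15.87 CPM) and Adamts2 (55.08 CPM). TGF-beta PSC5 replicate 1 was the highest for Adam19 (167.5 CPM) and Adamts6 (91.58 CPM). Timp2 was lowest in CM with neratinib PSC4 replicate 1 (629.7 CPM), and Adamts12 was highest in control PSC5 replicate 1 (18.46 CPM). The falls of Adam9 and Adamts5 with TGF-beta were also called without TGF-beta PSC5 replicate 2.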

How the results depend on the processing

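Of 92 calls of members in the 5 comparisons, 65 held under every alternative run other than the minimum of 1 on the log2 scale, 27 were lost under at least 1, and 0 changed direction. Those held were 20 of 23 for TGF-beta, 9 of 15 for CM, 16 of 22 for CM with neratinib, 0 of 7 for neratinib within CM and 20 of 25 for CM against TGF-beta. Leaving out single libraries gave 21 to 25, 12 to 15, 19 to 24, 3 to 10 and 21 to 23 calls in that order. Over all genes, leaving out single libraries gave 4750 to 5516, 801 to 1793, 4952 to 6258, 1748 to 3685 and 4079 to 4619 calls. For neratinib within CM the count of 7 became 11 with DESeq2, 1 with a log2 change of at least 1, 13 with the PSC4 replicate 1 libraries counted with PSC5, 16 with the replicate block, 2 with only the 2 groups in the fit and 0 without the T6 libraries. Over all genes the calls in those fits were 3549, 611, 4086, 4563, 602 and 187, in place of 2850. The members' count was 3 without any 1 CM library, without CM with neratinib PSC4 replicate 1 or without PSC5 replicate 2 of that group, and 10 without its PSC5 replicate 1. The minimum of 1 on the log2 scale left 16, 10, 15 and 16 calls for TGF-beta, CM, CM with neratinib and CM against TGF-beta, and T6 against T8 had 1 with DESeq2. Over all genes that minimum left 1669, 557, 1606 and 1583 calls in the same order of comparisons. With the replicate block the comparisons other than neratinib within CM had 27, 19, 27 and 26 calls, and it changed no call other than those given above. Over all genes the block raised the calls in them to 7091, 3240, 7300 and 6039, in place of 5598, 1976, 5998 and 4916. Mmp8, Mmp24 and Timp4, at no more than 13, 7 and 4 counts in any library, did not pass the low-count filter with all libraries. Between CM and TGF-beta, Timp4 was called with no low-count filter and Mmp8 without the T6 libraries, and both calls rest on few counts. The causes of the lost calls were not tested.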
